A study of Mus musculus with 27 samples.

Results

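Gene expression in the colon of Il10-/- mice kept under conventional conditions was compared with that of wild-type mice kept under the same conditions, both at 9 weeks of age. The 6 arrays of this comparison, 3 knockout and 3 wild type, belong to a series of 27 arrays, 1 per sample, in 9 groups of 3. The other groups are conventional knockouts and wild types at 7 and 12 weeks, and Il10-/- mice kept under specific pathogen free (SPF) conditions at all 3 ages. Below, knockouts and wild types without further words are the conventional groups at 9 weeks. The knockout label is a short code, read by elimination because the other codes name SPF housing and wild type. RNA came from homogenized colon of full thickness, so epithelium, lamina propria, muscle and nerve were read together. In such tissue, fewer cells of a type and less RNA per cell cannot be told apart. Within each group the authors picked 3 replicates by the length of the colon and the damage to it, so the arrays are not a random draw from the colony. On the knockout allele, the strain, the sex and any pooling of animals nothing is given in the sources used here. The p-values therefore measure the spread between samples within all 9 groups, which may be technical, and the small number of arrays limits the precision. The study's text names a rat array, but its probe sets are annotated as those of a mouse array.

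Interleukin 10 is a cytokine made by T cells and macrophages that acts through the receptor chains Il10ra and Il10rb and the transcription factor STAT3 to restrain macrophages and helper T cells. In mice that lack it, gut bacteria can drive colitis in which interferon gamma, interleukin 12 and interleukin 17 take part. All 18193 genes with a probe set of their own were tested, each through its brightest probe set over the 27 arrays. Values are log2 expression levels as deposited, and a difference is the knockout mean minus the wild-type mean on that scale, so that 1 is 2-fold. Differences are given ± SE from a limma model of all arrays, with n = 3 arrays per group. For each gene the model shares a single estimate of the spread over all 9 groups. The SE is thus not the spread of the compared groups alone. A gene is said to rise or fall only where its adjusted p was under 0.05 over all genes. Il10, the targeted gene, read 6.35, 6.30 and 5.66 in knockouts, against 3.70, 3.51 and 3.66 in wild types. The knockout arrays were thus all above the wild-type arrays, by 2.48 ± 0.29, adjusted p = 9.83e-06. The gene has 1 probe set, and since neither the allele nor the part of the transcript it reads is given, this value checks nothing about the labels. The epithelial markers Epcam and Vil1 and the mucin Muc2 were high on all 6 arrays, and so was the smooth muscle myosin Myh11. Epcam read 12.69, 12.73 and 12.64 in knockouts, against 12.63, 12.60 and 12.56 in wild types. Myh11 read 11.24, 11.41 and 11.51 in knockouts, against 12.08, 12.12 and 12.20 in wild types.

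In all, 4375 of the 18193 genes differed (24.0%), with 2582 higher (14.2%) and 1793 lower (9.86%) in knockouts. Counts of called list members below are to be read beside these shares. The median difference over all genes was 0.0002. A change of at least 2-fold was seen in 868 called genes (4.77%), 547 higher (3.01%) and 321 lower (1.76%). Rises reached further than falls: 109 genes rose and 49 fell by at least 2 log2 units, and 13 rose and 3 fell by at least 4. All 3 knockout arrays lay outside the range of the 3 wild-type arrays in 42.5% of all genes tested, above it in 22.7% and below it in 19.8%. Without knockout replicate 1 the count of called genes was 2119, of which 1355 were higher and 764 lower. Without knockout replicate 2 there were 1183 lower genes, and without wild-type replicate 1 there were 1139.

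**Figure D1:**
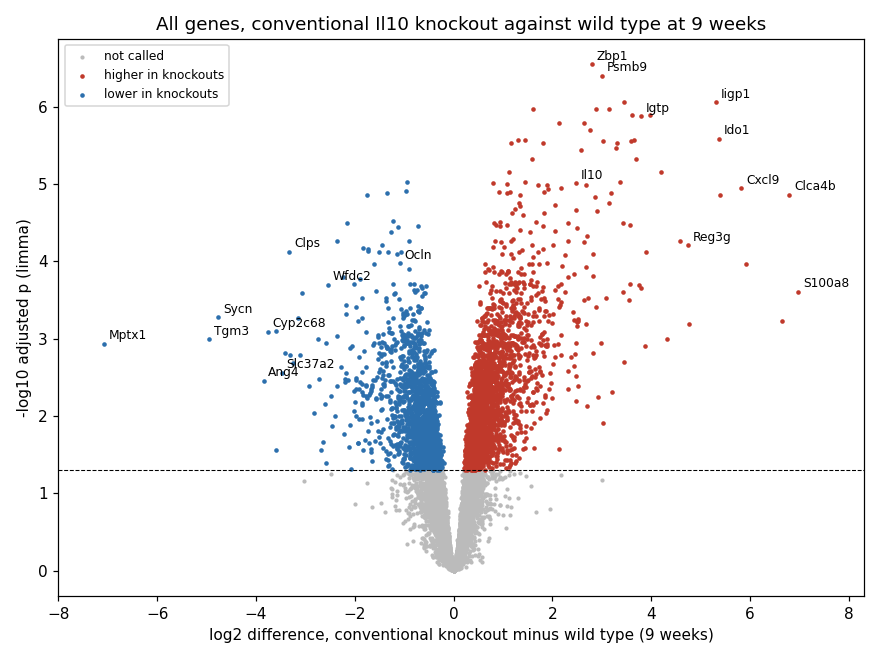
Each point is a gene, with its log2 difference, conventional knockout minus wild type at 9 weeks, on the x axis and -log10 of its limma adjusted p on the y axis. The 2582 red genes were higher and the 1793 blue genes lower in knockouts, the dashed line is an adjusted p of 0.05, and the rises reach further to the right than the falls do to the left apart from Mptx1.

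Among the 12 genes that rose furthest were S100a8, Clca4b, Sprr2h, Ubd and Reg3g. S100a8, a subunit of the neutrophil protein calprotectin, read 10.55, 11.08 and 9.14 in knockouts, against 3.35, 3.28 and 3.20 in wild types. Knockout replicate 3 was the lowest of its group and still far above every wild-type array, and the difference was 6.98 ± 1.12, adjusted p = 0.000249. Clca4b, a secreted protein of the calcium-activated chloride channel regulator family, read 12.03, 11.45 and 12.09 in knockouts, against 5.03, 5.07 and 5.08 in wild types. Its knockout values lay close together, and its difference was 6.80 ± 0.83, adjusted p = 1.39e-05. Sprr2h, a small proline-rich protein of cornified epithelia, read 9.12, 8.17 and 8.41 in knockouts, against 3.62, 3.99 and 3.76 in wild types. That is a difference of 4.78 ± 0.86, adjusted p = 0.00064. Ubd, a ubiquitin-like modifier induced by interferon gamma and tumour necrosis factor, read 10.52, 10.66 and 9.46 in knockouts, against 6.001, 5.69 and 5.19 in wild types. Its difference was 4.59 ± 0.63, adjusted p = 5.42e-05, and the arrays of the groups were again apart. Reg3g, a lectin that kills Gram-positive bacteria, differed in another way: it read 13.58, 13.13 and 13.31 in knockouts, against 7.20, 8.63 and 9.96 in wild types. Here the wild-type arrays were spread widely and already high, and the difference was 4.75 ± 0.66, adjusted p = 6.26e-05.

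Among the 12 genes that fell furthest were Mptx1, Tgm3, Fxyd4, Ang4, Eno3 and Sycn. Mptx1, a mucosal pentraxin, read 3.63, 5.33 and 9.26 in knockouts, against 13.07, 13.55 and 12.81 in wild types. The knockout arrays spanned a range wider than in any other gene but were all below the wild types (-7.07 ± 1.38, adjusted p = 0.00117). Tgm3, a transglutaminase that crosslinks proteins, read 5.62, 6.35 and 8.36 in knockouts, against 12.01, 11.70 and 11.47 in wild types. The same knockout array, replicate 3, was again nearest to the wild types. Fxyd4, a regulator of the sodium pump in colon and kidney, read 4.54, 4.85 and 8.81 in knockouts, against 10.29, 9.55 and 9.12 in wild types. Its difference was -3.59 ± 1.16, adjusted p = 0.0278. Fxyd4 lost its call without knockout replicate 1 or 2 or wild-type replicate 1 or 2. Its highest adjusted p with an array left out was 0.157. Ang4, an antimicrobial ribonuclease of goblet and Paneth cells, read 9.43, 9.46 and 8.07 in knockouts, against 12.36, 13.81 and 12.32 in wild types. Eno3, the muscle form of enolase, read 6.64, 7.74 and 7.77 in knockouts, against 11.11, 10.499 and 10.28 in wild types. In both genes the groups were apart. Sycn, a protein of secretory granules in the pancreas and gut, read 7.27, 7.22 and 8.63 in knockouts, against 12.71, 12.51 and 12.20 in wild types. Clps, the cofactor of pancreatic lipase, fell with it (-3.33 ± 0.47, adjusted p = 7.57e-05). In the list of 12 acinar markers measured, Cela1 also fell (-2.17 ± 0.48), while the other 9, among them the carboxypeptidase Cpa1 (0.004 ± 0.50) and the trypsin Prss2 (-0.11 ± 0.45), were not called and lay between -0.42 and 0.10. A part of pancreatic tissue in these 3 falls was not tested. Ttr, a carrier of thyroid hormone and retinol, fell by 3.31 ± 0.68, while the other 7 liver markers were not called.

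**Figure D2:**
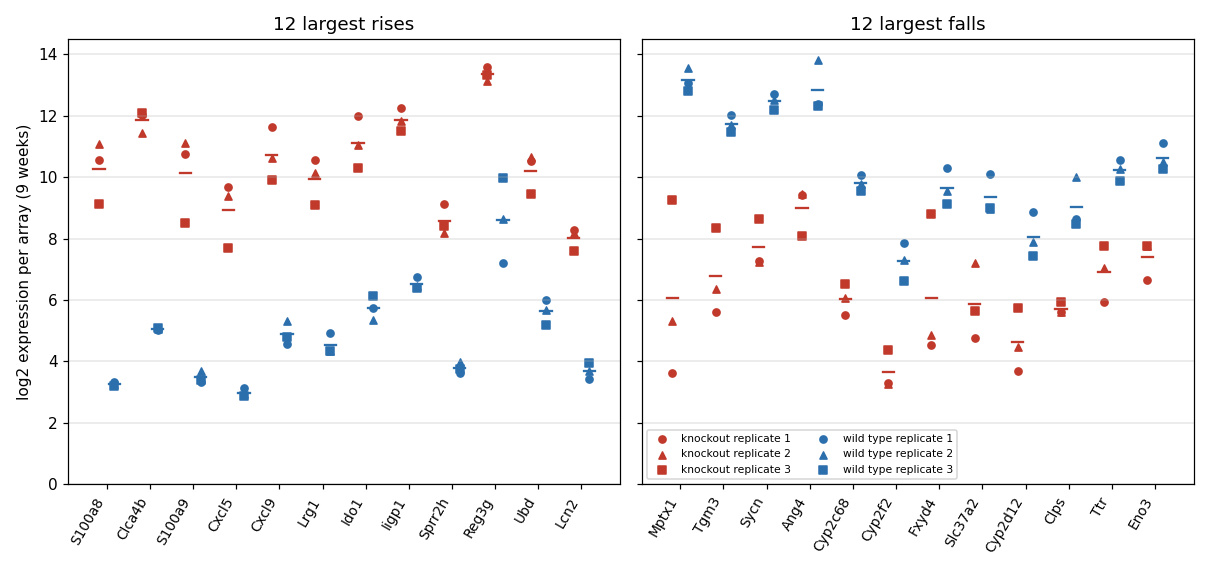
Log2 expression on each 9-week array is plotted for the 12 largest rises on the left and the 12 largest falls on the right, with knockouts in red, wild types in blue, a symbol per replicate number and a short line at each group mean. In every one of these 24 genes the 3 knockout arrays lie beyond the 3 wild-type arrays, and knockout replicate 3, the square, is often the nearest to them, as in S100a8 (9.14) and Mptx1 (9.26).

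The 3 knockout arrays differed among themselves more than the wild types did. The median SD of a gene was 0.144 in knockouts and 0.109 in wild types, and among called genes it was 0.196 in knockouts and 0.112 in wild types. An SD above 1 was seen for 50 genes in knockouts and 8 in wild types. Much of this spread ran in 1 direction. Of the 547 genes that rose by at least 2-fold, 469 (85.7%) were nearest to the wild types on knockout replicate 3, and of the 321 that fell, 230 (71.7%). The median difference from the wild-type mean over these rising genes was 1.68 on knockout replicate 1, 1.502 on replicate 2 and 1.05 on replicate 3. Over the falling genes it was -1.64, -1.36 and -1.09 on the same arrays. These genes were chosen by the comparison itself, so the values only describe the arrays. Over all genes, the Spearman correlation between arrays was 0.988 to 0.993 within knockouts and 0.995 within wild types, and knockout replicate 3 correlated with the wild types at 0.982 to 0.983, against 0.965 to 0.966 for replicate 1.

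**Figure D3:**
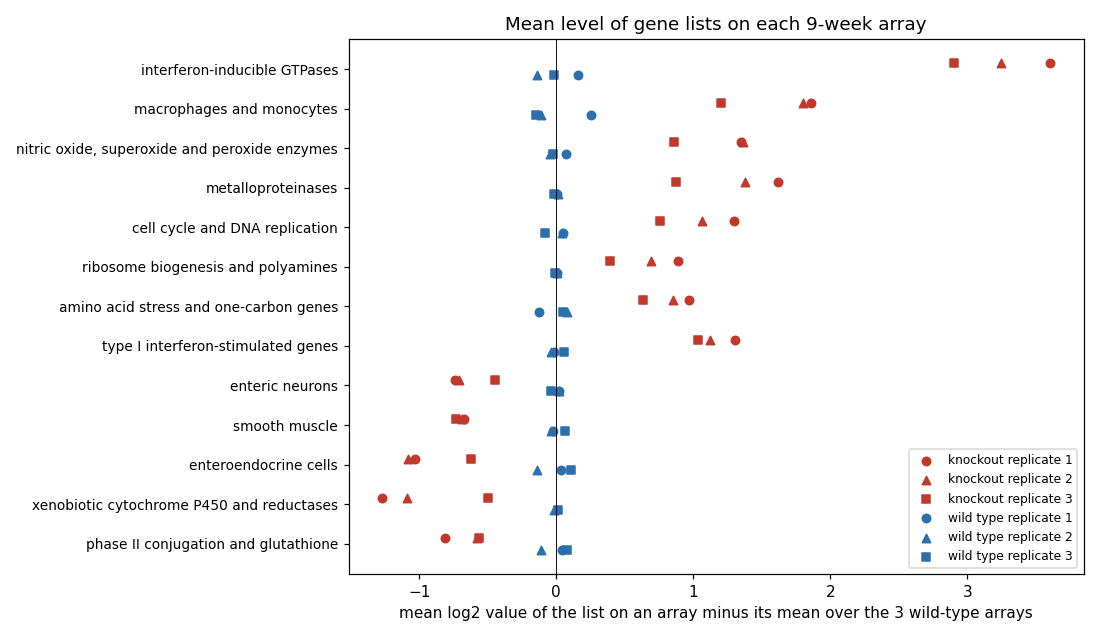
For 13 gene lists, the mean log2 level of the measured members on each 9-week array is plotted as its distance from the mean of the 3 wild-type arrays, with knockouts in red above wild types in blue. Knockout replicate 3 lies nearest to the wild types in each of these lists but smooth muscle, where its distance is the largest of the 3.

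All 9 GTPases induced by interferon gamma rose. This cytokine of activated T and NK cells acts in part through Irf1, which binds the interferon-stimulated response element (ISRE). To show this element, promoters from 250 bases upstream of the gene start were taken from RefSeq (GRCm38.p6) and searched on both strands for its core (GAAA, NN, GAAA). The ISRE core stood in 6 of the 7 GTPase promoters in the table, and in 3.13% of the promoters of all genes tested. A match of letters is a description and not a shown binding site. Printed 5′ to 3′ on the gene's strand, with the match in capitals, are Igtp at chr11:58199512-58199541 on the plus strand, Irgm2 at chr11:58214903-58214932 on the plus strand, Gbp2 at chr3:142620594-142620623 on the plus strand and Gbp3 at chr3:142559989-142560018 on the plus strand. In Gbp2 and Gbp3 the match reads on the other strand. Gbp2 and Gbp3 were chosen for holding the match, after their values were seen.
Igtp: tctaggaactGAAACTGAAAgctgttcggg
Irgm2: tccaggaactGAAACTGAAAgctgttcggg
Gbp2: actcttttagTTTCACTTTCactgtcttaa
Gbp3: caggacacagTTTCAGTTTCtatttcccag
All 4 of these genes rose.

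Ifng itself was low in wild types and uneven in knockouts, at 6.82, 4.68 and 3.27 in knockouts, against 2.73, 2.78 and 2.84 in wild types. Its difference was 2.14 ± 0.69, adjusted p = 0.0265, and knockout replicate 1 was the highest array. Ifng lost its call without knockout replicate 1 or 2 or wild-type replicate 1, 2 or 3 or with only the compared arrays. Irf1, its transcription factor target, read 11.05, 10.97 and 10.52 in knockouts, against 9.66, 9.76 and 9.79 in wild types. The groups were apart, with a difference of 1.11 ± 0.17, adjusted p = 0.000133. All 9 GTPases measured rose (median 3.15), which are proteins that attack the vacuoles of intracellular microbes. Igtp read 11.17, 10.57 and 10.26 in knockouts, against 7.03, 6.83 and 6.77 in wild types. Iigp1, the largest of these changes, was 5.32 ± 0.48, adjusted p = 8.76e-07. Others were Ifi47 (3.62 ± 0.35), Irgm2 (2.64 ± 0.26) and Irgm1 (2.13 ± 0.21). Of the Th1 and Th17 list, 4 of 15 rose and none of the 15 fell (median 0.11), the others being Il12rb1 (0.97 ± 0.16), a receptor chain for interleukins 12 and 23, and Stat4 (0.93 ± 0.28), which carries the interleukin 12 signal. The Th17 cytokine Il17a (0.73 ± 0.35), the Th1 factor Tbx21 (0.31 ± 0.15) and the interleukin 12 chain Il12b (-0.02 ± 0.13) were not called. Stat4 lost its call without knockout replicate 1 or 2 or wild-type replicate 3. Without knockout replicate 1 or wild-type replicate 3, 2 members of this list were called.

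Antigen presentation rose broadly. In the list of immunoproteasome and MHC class I loading genes, 14 of 15 rose and none fell (median 1.16), the exception being the chaperone Calr (0.36 ± 0.20). Psmb9, a catalytic subunit that replaces its constitutive counterpart in the proteasome, read 10.500, 10.27 and 9.82 in knockouts, against 7.33, 7.20 and 7.05 in wild types. Wild-type values lay within a narrow band and the difference was 3.01 ± 0.25, adjusted p = 4.02e-07. Its partners Psmb8 (2.87 ± 0.27) and Psmb10 (1.61 ± 0.15), the peptide pump gene Tap1 (3.14 ± 0.29) and Nlrc5 (3.97 ± 0.39), the activator of class I genes, rose as well. Of the class II list, 6 of 10 rose (median 1.67). H2-DMa, which loads peptides onto class II molecules, read 9.84, 9.67 and 9.20 in knockouts, against 6.50, 6.67 and 6.50 in wild types. The invariant chain Cd74 (2.71 ± 0.37) and the class II chains H2-Ab1 (2.49 ± 0.32), H2-Eb1 (2.32 ± 0.30) and H2-Aa (2.01 ± 0.28) rose, while the B cell modulator H2-Ob (-0.53 ± 0.50) was not called. The CXCR3 axis, by which effector T cells are drawn, rose in 4 of 4 genes. Cxcl9 read 11.62, 10.63 and 9.91 in knockouts, against 4.56, 5.33 and 4.78 in wild types. Its relative Cxcl10 differed by 3.80 ± 0.60 and the receptor Cxcr3 by 0.59 ± 0.11. Cxcl11, the remaining ligand, differed by 1.81 ± 0.46. Cxcl11 lost its call without knockout replicate 1.

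The list of genes induced by type I interferon gave 16 of 23 higher and none lower (median 1.06), and 8 of its 17 promoters in the table held the ISRE core. Zbp1, a sensor of nucleic acids that can trigger necroptosis, had the smallest adjusted p of all genes and read 9.20, 8.88 and 8.85 in knockouts, against 6.10, 6.31 and 6.12 in wild types. Its difference was 2.80 ± 0.22, adjusted p = 2.83e-07. Ifit2, which binds viral RNA, differed by 2.90 ± 0.37, the oligoadenylate synthetase relative Oasl2 by 2.31 ± 0.35, the deconjugating enzyme Usp18 by 2.63 ± 0.43 and the virus tether Bst2 by 1.71 ± 0.24. The members did not move as a block: the classic antiviral genes Rsad2 (0.09 ± 0.32), Mx1 (0.26 ± 0.19), Mx2 (-0.01 ± 0.15), Ifih1 (0.27 ± 0.13) and Irf7 (0.37 ± 0.28) were not called. Ifit1 (1.09 ± 0.45) and Ifit3 (0.62 ± 0.34) missed the threshold at adjusted p of 0.0871 and 0.205.

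Genes of the acute phase and of neutrophil recruitment followed. In the list of calprotectin, lipocalin and acute phase genes, 11 of 17 rose and none fell (median 1.89). Lcn2, which withholds iron from bacteria, read 8.29, 8.17 and 7.60 in knockouts, against 3.44, 3.69 and 3.95 in wild types. Lrg1, a glycoprotein of inflamed tissue, read 10.54, 10.13 and 9.11 in knockouts, against 4.92, 4.34 and 4.33 in wild types. Both had every knockout array above every wild-type array, as did the serum amyloid Saa3 (3.55 ± 0.58). Its relatives Saa1 (-0.86 ± 0.32) and Saa2 (-0.79 ± 0.32) were lower on average but not called. Of the neutrophil chemokines, Cxcl5 read 9.67, 9.39 and 7.69 in knockouts, against 3.14, 2.94 and 2.88 in wild types. It differed by 5.93 ± 0.87, adjusted p = 0.000109, with Cxcl1 (1.84 ± 0.45) and Cxcl2 (3.02 ± 0.85) beside it, so that 3 of 10 genes of this list rose. Their receptor Cxcr2 (0.27 ± 0.12) and the growth factor Csf3 (0.31 ± 0.41) were not called. Among CC chemokines and receptors 9 of 22 rose, led by Ccl8 (3.37 ± 0.39), Ccl5 (2.65 ± 0.37) and the monocyte receptors Ccr2 (1.91 ± 0.34) and Ccr1 (1.79 ± 0.40). Ccl20 (-0.79 ± 0.39) and Ccl6 (-0.42 ± 0.27) were below wild type without a call. Cxcl2 lost its call without knockout replicate 1 or 2. The list of neutrophil chemokines had 5 higher genes without 12-week SPF knockout replicate 2 or 3.

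In the list of pattern receptors and their signalling 12 of 20 genes rose (median 0.61). Clec7a, the receptor for fungal glucans, read 10.03, 9.85 and 8.50 in knockouts, against 6.24, 5.71 and 5.72 in wild types. The endotoxin co-receptor Cd14 (1.43 ± 0.22), the adaptor Myd88 (0.82 ± 0.16), the RNA receptor Tlr3 (0.77 ± 0.13) and the NF-kB adaptor Tifa (1.92 ± 0.23) rose, while Tlr5 (-0.15 ± 0.18), the flagellin receptor, and Tlr9 (-0.26 ± 0.15), the receptor for bacterial DNA, were not called. In the IL-1 family 4 of 14 rose and 1 fell (median 0.61). Il1b read 9.22, 8.67 and 6.75 in knockouts, against 4.70, 5.04 and 4.56 in wild types. Its decoy receptor Il1r2 differed by 2.31 ± 0.55. Il18, an epithelial cytokine, was the member that fell (-1.35 ± 0.27, adjusted p = 0.00129), and its binding protein Il18bp rose (2.76 ± 0.28, adjusted p = 1.98e-06). Il18 read 9.15, 9.39 and 9.55 in knockouts, against 10.99, 10.70 and 10.43 in wild types. For the IL-6 family and STAT3 feedback the count was 10 of 16 higher and 1 lower (median 1.05), with Socs3, the feedback inhibitor of STAT3, at 10.503, 10.07 and 9.93 in knockouts, against 6.92, 6.53 and 6.74 in wild types. The transcription factors Cebpb (1.63 ± 0.28), Cebpd (0.96 ± 0.18) and Stat3 (0.67 ± 0.12) and the oncostatin receptor Osmr (1.49 ± 0.28) rose, while Il6 (1.15 ± 0.62) itself was not called. Of the TNF and NF-kB genes 8 of 16 rose (median 0.63), among them Tnf (1.27 ± 0.25) and its receptors Tnfrsf1b (2.31 ± 0.32) and Tnfrsf1a (0.66 ± 0.16). The inhibitors Nfkbia (0.49 ± 0.19) and Tnfaip3 (0.63 ± 0.24) were not called. In this list 4 genes rose without knockout replicate 1 and 5 without knockout replicate 2, and in the IL-1 family 7 rose without 12-week SPF knockout replicate 2 and 2 fell without 7-week conventional knockout replicate 3.

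Of the receptor family of interleukin 10, besides Il10 itself, Il10ra, the ligand-binding chain found on leukocytes, rose (1.08 ± 0.35, adjusted p = 0.0302), while the shared chain Il10rb (-0.004 ± 0.08) did not pass. Il22ra2, a soluble inhibitor of interleukin 22, fell (-1.14 ± 0.30, adjusted p = 0.00876). The list thus counted 2 of 8 higher and 1 lower, and 1 higher without knockout replicate 1 or 2 or wild-type replicate 2 or 3. Il10ra lost its call without knockout replicate 1 or 2 or wild-type replicate 2 or 3 or with the mean of its probe sets, and Il22ra2 lost its call without knockout replicate 1. Secreted defence proteins of the epithelium split. In that list 8 of 20 rose and 4 fell. Pla2g2a, a phospholipase that attacks bacterial membranes, read 7.81, 7.54 and 8.05 in knockouts, against 4.52, 4.52 and 4.50 in wild types. Reg3b, a lectin against Gram-negative bacteria, differed by 1.66 ± 0.36. On the other side Wfdc2, a protease inhibitor, fell and read 7.65, 8.79 and 8.85 in knockouts, against 11.21, 11.04 and 10.69 in wild types. Retnlb, a goblet cell product, was 1.95 ± 0.98 with adjusted p = 0.158, and the mucus lectin Zg16 (-0.22 ± 0.17) did not pass. In the list of enzymes that make or handle nitric oxide, superoxide and peroxide 9 of 13 rose (median 1.17). Nos2, the inducible nitric oxide synthase, read 7.63, 6.67 and 6.30 in knockouts, against 3.89, 4.32 and 4.19 in wild types. The phagocyte oxidase subunits Cybb (2.51 ± 0.45) and Cyba (1.17 ± 0.20), the maturation factor Duoxa2 (1.80 ± 0.34) of the epithelial peroxide maker, and the epithelial glutathione peroxidase Gpx2 (1.46 ± 0.26) rose, and the mitochondrial dismutase Sod2 (0.14 ± 0.13) was not called.

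Enzymes of tryptophan use diverged. Ido1, which opens the kynurenine pathway, read 11.99, 11.06 and 10.31 in knockouts, against 5.72, 5.36 and 6.14 in wild types. It differed by 5.38 ± 0.56, adjusted p = 2.63e-06, and 4 of the 11 enzymes measured rose and 2 fell. The tryptophanyl-tRNA synthetase Wars (1.67 ± 0.22) and 2 later enzymes of the kynurenine pathway, Kynu (0.72 ± 0.14) and Kmo (0.80 ± 0.24), rose. Its other enzymes in the list, Afmid, Haao and Qprt, were not called. Tph1, which makes serotonin in enteroendocrine cells, fell (-1.32 ± 0.45, adjusted p = 0.0366) with Maoa (-0.68 ± 0.21), which degrades it. The related enzymes Ido2 (0.14 ± 0.13) and Tdo2 (-0.09 ± 0.13) were not called. Kmo lost its call without knockout replicate 1 or 2 or wild-type replicate 3, and Maoa lost its call without knockout replicate 1 or wild-type replicate 1 or 3. The count of falls was 0 without knockout replicate 1 or wild-type replicate 1 or 3, and 1 without knockout replicate 2. Tph1 was named after its value was seen.

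Several marker lists of immune cells were higher. Of the macrophage and monocyte markers 19 of 21 rose (median 1.61). Their summed level on the linear scale was 6372 to 10500 on knockout arrays, against 2710 to 3723 on wild-type arrays. Aif1, a protein of activated macrophages, read 8.03, 7.79 and 6.87 in knockouts, against 5.42, 4.93 and 5.05 in wild types. The complement genes C1qa (1.62 ± 0.23) and C1qc (1.58 ± 0.23) and the lectin receptor Clec4n (2.83 ± 0.43) rose, whereas the markers of resident macrophages Cd163 (0.36 ± 0.29) and Mrc1 (0.09 ± 0.24) were not called. Of the cytotoxic lymphocyte markers 8 of 13 rose (median 0.91). Gzma, a granule protease, read 8.87, 8.03 and 8.50 in knockouts, against 4.66, 4.78 and 5.17 in wild types. Gzmb differed by 3.45 ± 0.31 and Nkg7 by 2.05 ± 0.27, but perforin, Prf1, did not pass (-0.34 ± 0.13). Of the T cell markers 8 of 18 rose, including the receptor chain Cd3g (2.49 ± 0.33), the checkpoint receptor Ctla4 (1.43 ± 0.26) and the costimulator Icos (1.18 ± 0.23). The killer cell chain Cd8a (0.25 ± 0.14) and the regulatory factor Foxp3 (-0.03 ± 0.13) were not called. T cells counted 5 without knockout replicate 1 or 2 or wild-type replicate 2 or 3.

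Of the neutrophil markers 8 of 17 rose (median 0.84). Beside calprotectin, Fpr2, a receptor for bacterial formyl peptides, read 8.28, 7.83 and 6.38 in knockouts, against 3.74, 3.48 and 3.64 in wild types. Granule genes made in bone marrow precursors, Mpo (0.09 ± 0.15), Elane (-0.29 ± 0.11), Camp (0.02 ± 0.15) and Ngp (0.03 ± 0.39), were not called. For dendritic cells 4 of 12 rose, among them Itgax (2.04 ± 0.42), Irf8 (1.33 ± 0.17) and Batf3 (0.83 ± 0.15), while the growth factor receptor Flt3 (0.16 ± 0.14) did not pass. For plasma cells 2 of 11 rose, a share not far from the 14.2% of all genes. These were the master factor Prdm1 (1.31 ± 0.25) and the adhesion protein Slamf7 (0.77 ± 0.17), while the antibody joining chain Jchain (-0.08 ± 0.30) did not pass. B cells counted 1 higher and 1 lower of 12, shares below the 14.2% higher and 9.86% lower of all genes. The adaptor Blnk (0.59 ± 0.15), which macrophages also use, rose and the low-affinity IgE receptor Fcer2a (-0.72 ± 0.25) fell, with Ms4a1 (-0.61 ± 0.58) and Cd79a (-0.18 ± 0.43) not called. Fcer2a lost its call without knockout replicate 1, 2 or 3 or wild-type replicate 1, 2 or 3 or with the replicate block or after quantile normalization. The mast cell proteases Mcpt1 (1.44 ± 0.46) and Mcpt2 (1.33 ± 0.45) rose, 2 of the 14 genes of the eosinophil and mast cell list, a share close to the 14.2% of all genes. Mcpt1 lost its call without knockout replicate 1 or wild-type replicate 1, 2 or 3 or with only the compared arrays, and Mcpt2 lost its call without knockout replicate 1 or 2 or wild-type replicate 1, 2 or 3 or with the replicate block or with only the compared arrays. Complement genes rose in 10 of 14 cases (median 0.88), the C1 proteases C1ra (1.38 ± 0.27) and C1s1 (1.07 ± 0.22) among them. The lysosome list counted 8 of 23 higher and 2 lower, the share of falls being below the 9.86% of all genes. The activator of granzymes Ctsc (1.29 ± 0.20) was higher and the protease Ctsl (-0.92 ± 0.17) lower. Without knockout replicate 1 or 2 or wild-type replicate 1 or 3, 1 gene of the list was lower.

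Proteases of tissue remodelling came next. Metalloproteinases and their relatives rose in 11 of 17 cases (median 1.06). Mmp10, a stromelysin of wounded epithelium, read 9.25, 7.56 and 6.74 in knockouts, against 4.46, 3.88 and 3.95 in wild types. Mmp7, which activates defensins in the mouse, read 8.51, 9.39 and 8.23 in knockouts, against 5.18, 5.14 and 5.50 in wild types. The collagenase Mmp13 (2.49 ± 0.55), the membrane protease Mmp14 (0.70 ± 0.15) and the leukocyte protease Adam8 (1.85 ± 0.45) rose, while the inhibitors Timp2 (-0.37 ± 0.18) and Timp3 (-0.30 ± 0.21) were not called. Without knockout replicate 1 the count was 6, and without knockout replicate 2 it was 7. Of 23 collagen and matrix genes 1 rose and 2 fell, shares below the 14.2% higher and 9.86% lower of all genes. Col18a1 (1.11 ± 0.21) of basement membranes was higher, and Col4a5 (-0.89 ± 0.25) and the periostin gene Postn (-1.12 ± 0.32) were lower. The fibrillar collagens Col1a1 (0.51 ± 0.25) and Col3a1 (-0.02 ± 0.15) were not called, nor was any of 13 fibroblast markers (limma; without adjustment 3 passed 0.05 above wild type and 3 below). Col4a5 lost its call without knockout replicate 1, and Postn lost its call without knockout replicate 1 or wild-type replicate 1. Rising matrix genes numbered 3 without knockout replicate 3 or 12-week SPF knockout replicate 2 and 2 without 12-week SPF knockout replicate 3. Growth factor and repair genes rose in 7 of 18 cases, among them the integrin Itgb6 (1.30 ± 0.20) of healing epithelium and the urokinase receptor Plaur (1.93 ± 0.46). That count was 3 without knockout replicate 1 or wild-type replicate 3, and 4 without knockout replicate 2 or wild-type replicate 1. In the same list 1 gene fell, and 0 without knockout replicate 1 or 2 or wild-type replicate 1. Of the adhesion and vessel genes 5 of 20 rose, among them genes that capture leukocytes, Icam1 (2.37 ± 0.49), Vcam1 (1.93 ± 0.34) and the gut addressin Madcam1 (1.20 ± 0.20). The plain vessel markers Pecam1 (0.25 ± 0.23) and Cdh5 (0.43 ± 0.22) were not called, and 3 genes of this list rose without knockout replicate 2 or wild-type replicate 2. In the list of inflammasome, caspase and gasdermin genes 7 of 15 rose and 1 fell, and the lowest difference in it was -2.11. Ripk3 (2.05 ± 0.26) and Mlkl (1.84 ± 0.24), the kinase and effector of necroptosis, rose furthest. The rises numbered 4 without knockout replicate 1, and the falls 0 without knockout replicate 1 or 3 or wild-type replicate 1 or 2. Casp8 (0.73 ± 0.12) rose, while Casp1 (0.19 ± 0.15) and Nlrp3 (0.34 ± 0.22) were not called.

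Growth and biosynthesis genes were higher too. Of the cell cycle list 26 of 29 rose and none fell (median 1.07). Rrm2, which makes deoxynucleotides, read 9.67, 9.19 and 9.22 in knockouts, against 7.21, 7.501 and 6.97 in wild types. Ccna2, a cyclin of the S and G2 phases, read 10.39, 9.96 and 9.65 in knockouts, against 8.87, 8.87 and 8.65 in wild types. The survivin gene Birc5 (1.48 ± 0.25), the replication helicase Mcm4 (1.30 ± 0.22) and Top2a (1.23 ± 0.21) rose, whereas the inhibitor Cdkn1a (0.28 ± 0.15) and the thymidylate synthase Tyms (0.03 ± 0.17) were not called. Ribosome biogenesis and polyamine genes rose in 14 of 19 cases (median 0.66), led by the nucleolar proteins Nolc1 (1.18 ± 0.25) and Nop56 (0.91 ± 0.21), the spermidine synthase Srm (1.14 ± 0.27) and the growth factor-induced Myc (0.86 ± 0.20). Their count was 6 without knockout replicate 1. Of 20 genes of amino acid stress, serine and folate use 7 rose and none fell (median 0.59). Psat1, an enzyme of serine synthesis, read 8.34, 8.19 and 7.36 in knockouts, against 5.42, 5.56 and 5.34 in wild types. Phgdh (2.11 ± 0.35), Shmt2 (1.501 ± 0.34) and Mthfd2 (1.68 ± 0.42), enzymes of serine synthesis and of the mitochondrial folate cycle, rose too. Of the stress genes, Asns rose by 1.22 (limma adjusted p = 0.0107) and lost its call without knockout replicate 1, while Trib3 (0.06 ± 0.30) and Sesn2 (-0.15 ± 0.13) were not called. That list had 4 higher genes without knockout replicate 1, and 11 without 12-week SPF knockout replicate 1 or 2.

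Glycolysis and hypoxia genes rose in 9 of 22 cases (median 0.33), with the hexokinase Hk2 (1.40 ± 0.22), the lactate exporter Slc16a3 (1.57 ± 0.35) and the phosphofructokinase Pfkp (0.82 ± 0.14). The hypoxia targets Vegfa (-0.09 ± 0.13) and Car9 (0.12 ± 0.12) and the glucose carrier Slc2a1 (0.01 ± 0.10) were not called. The count was 4 without knockout replicate 1, and 5 without knockout replicate 2 or wild-type replicate 3. Cholesterol and fatty acid synthesis counted 11 of 21 higher and 1 lower (median 0.40), with the lanosterol synthase Lss (0.97 ± 0.24) and the mevalonate enzyme Mvd (1.04 ± 0.26) higher and Acsl3 (-1.33 ± 0.24), which activates fatty acids, lower. Hmgcs1 (0.09 ± 0.18), earlier in the same route, was not called. The higher count was 1 without knockout replicate 1, 4 without knockout replicate 2, 3 without wild-type replicate 1 and 6 without wild-type replicate 3. Mvd lost its call without knockout replicate 1.

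Chaperones of the endoplasmic reticulum carry a known element in their promoters, the ERSE, bound by ATF6 and XBP1 with NF-Y. Its letters, CCAAT and CCACG with 9 bases of any kind between them, stood in 7 of 20 promoters of the unfolded protein response list, searched as above on both strands, and in 0.131% of those of all genes tested (19 of 14452). They are shown for Creld2 and Dnajc3, which rose, and for Hsp90b1 and Canx, which were not called, with the match in capitals. The stretches lie, in GRCm38.p6, for Creld2 at chr15:88819515-88819543 on the plus strand, Dnajc3 at chr14:118937822-118937850 on the plus strand, Hsp90b1 at chr10:86705633-86705661 on the minus strand and Canx at chr11:50325795-50325823 on the minus strand, and in Creld2 the match reads on the other strand.
Creld2: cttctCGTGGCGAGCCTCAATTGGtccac
Dnajc3: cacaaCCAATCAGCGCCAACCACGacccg
Hsp90b1: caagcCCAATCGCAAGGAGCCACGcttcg
Canx: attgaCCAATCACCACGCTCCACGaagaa
Of the 23 genes 11 rose and 1 fell (median 0.43). Creld2, a chaperone for secreted proteins, read 9.84, 9.33 and 8.88 in knockouts, against 8.10, 8.15 and 8.07 in wild types. The neurotrophic factor-like Manf (0.91 ± 0.21), the translocon subunit Sec61b (0.55 ± 0.12), and the co-chaperones Dnajb11 (0.70 ± 0.17) and Dnajc3 (0.66 ± 0.16) rose. Hsp90b1 (0.11 ± 0.16), Canx (0.02 ± 0.08) and the transducer Xbp1 (0.07 ± 0.10) were not called, so genes with these letters lay on both sides of the threshold. Without knockout replicate 1 the count was 5, and without knockout replicate 2 or wild-type replicate 3 it was 7. No gene of the list fell without knockout replicate 1 or wild-type replicate 1. Dnajc3 lost its call without knockout replicate 1.

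Carriers of the absorptive epithelium fell in part. Of 24 carriers of short-chain fatty acids, sugars and amino acids 9 fell and 3 rose (median -0.25). Slc16a1, the carrier of butyrate and lactate, read 10.79, 10.88 and 10.83 in knockouts, against 11.88, 11.82 and 11.52 in wild types. Slc15a1, the peptide carrier, read 4.13, 4.39 and 6.01 in knockouts, against 8.31, 7.60 and 8.06 in wild types. The sugar phosphate exchanger Slc37a2 fell with them (-3.48 ± 0.77), whereas the bile acid exporter chain Slc51b (1.496 ± 0.28) and the amino acid carrier Slc7a9 (1.33 ± 0.30) rose. The count of falls was 5 without wild-type replicate 1. Electrolyte and water transport counted 6 lower of 25 and none higher (median -0.27), against 9.86% of all genes lower. Slc26a3, the chloride exchanger of surface cells, read 11.03, 10.82 and 11.54 in knockouts, against 12.53, 12.43 and 12.52 in wild types. The carbonic anhydrase Car2 (-1.19 ± 0.23) and the mineralocorticoid receptor Nr3c2 (-0.79 ± 0.20) fell. The water channel Aqp8 (-1.76 ± 0.70) and the proton pump Atp12a (-2.48 ± 0.93) differed by more without a call. Atp12a read 6.21, 9.37 and 9.84 in knockouts, against 11.26, 10.67 and 10.94 in wild types, with knockout replicate 1 far below the other arrays. Without knockout replicate 3 or 12-week SPF knockout replicate 2 the count of falls was 10.

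Enzymes that handle foreign compounds fell in part. Of 21 cytochrome P450 genes and reductases 8 fell and 1 rose (median -0.61). Cyp2c68 read 5.50, 6.07 and 6.53 in knockouts, against 10.05, 9.78 and 9.55 in wild types. Cyp4b1, which oxidizes fatty acids and toxins, differed by -3.08 ± 0.50, adjusted p = 0.000259, and Cyp2d10 by -2.14 ± 0.49. Cyp2c55 (-2.005 ± 0.96, adjusted p = 0.137) missed the threshold. Genes of this family are alike in sequence, so probe sets may read more than 1 of them. Without knockout replicate 1 the count of falls was 5, and that of rises was 0 without any 1 of the knockout arrays or wild-type replicate 1 or 2. Of 25 conjugation genes 7 fell and none rose (median -0.61). The sulfotransferase Sult1c2 read 6.15, 6.42 and 7.09 in knockouts, against 8.93, 8.65 and 8.67 in wild types. Gstt1, a glutathione transferase, differed by -1.44 ± 0.33, adjusted p = 0.00392, while Gsta3 (0.30 ± 0.23) and Gstp1 (-0.05 ± 0.11) were not called. That count was 3 without knockout replicate 1, 4 without wild-type replicate 1 or 2, 2 without wild-type replicate 3, 13 without 12-week SPF knockout replicate 2 and 12 without 12-week SPF knockout replicate 3. Of 22 nuclear receptors and epithelial factors 2 rose and 2 fell, shares below the 14.2% higher and 9.86% lower of all genes. The bile acid receptor Nr1h4 (0.96 ± 0.17) was higher. The xenobiotic receptor Nr1i2 (-0.17 ± 0.16) and the identity factor Hnf4a (-0.16 ± 0.12) were not called. Each of these counts was 1 without knockout replicate 1 or wild-type replicate 2, and that of falls also without wild-type replicate 1, with 4 falls without 12-week SPF knockout replicate 2.

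Mitochondrial lists moved unevenly. Fatty acid oxidation counted 1 higher and 3 lower of 23 (median -0.23), against 14.2% of all genes higher and 9.86% lower. Oxct1 (-0.70 ± 0.13), which uses ketone bodies, was lower and Acadl (0.45 ± 0.10) higher. All 3 knockout arrays lay below the wild types in 12 of the 23 genes, against 19.8% of all genes. They lay above them in 1, against 22.7%. Hadha (-0.09 ± 0.17) and Cpt1a (-0.45 ± 0.20) were not called. Its falls numbered 1 without knockout replicate 1, 6 without knockout replicate 3 and 5 without 12-week SPF knockout replicate 2. The respiratory chain gave 3 higher and 3 lower of 27 (median 0.06), a share close to that of all genes in each direction. Its rises numbered 0 without knockout replicate 1 or wild-type replicate 2 or 3 and 1 without knockout replicate 2, and its falls 0 without knockout replicate 1. Of 20 citrate cycle and pyruvate genes 1 rose and 4 fell (median -0.06), a share of falls above the 9.86% of all genes. Among the falls was Pcx (-1.37 ± 0.34), which refills the cycle from pyruvate, and 1 gene fell without knockout replicate 1. The rises of that list numbered 0 without knockout replicate 1 or 2 or wild-type replicate 1 or 3 and 2 without knockout replicate 3, 12-week SPF knockout replicate 2 or 12-week SPF knockout replicate 3. Of 18 genes of vitamin A handling and response 3 fell and 1 rose. Its rises numbered 2 without 7-week wild-type replicate 3 and 0 without knockout replicate 1 or wild-type replicate 2. Adh1, which oxidizes retinol, read 10.06, 10.83 and 11.56 in knockouts, against 13.02, 12.82 and 12.55 in wild types. Rbp2, the retinol-binding protein of enterocytes, fell too (-1.68 ± 0.40, adjusted p = 0.00446).

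Junction and mucus genes moved singly. Of 26 claudins, junction proteins and keratins 4 rose and 4 fell, against 14.2% of all genes higher and 9.86% lower. The share of rises was thus close to that of all genes. Cldn8, a claudin that seals the distal colon to sodium, read 8.05, 9.25 and 9.43 in knockouts, against 10.996, 10.74 and 10.42 in wild types. Ocln, occludin, read 8.02, 8.32 and 8.50 in knockouts, against 9.47, 9.46 and 9.17 in wild types. These knockout arrays were all below the wild types, and Tjp1 (-0.44 ± 0.10) fell while its relative Tjp3 (0.37 ± 0.10) rose. The channel-forming Cldn2 (0.44 ± 0.22) and the keratins Krt8 (0.07 ± 0.08) and Krt18 (-0.03 ± 0.13) were not called. The count of rises was 2 without knockout replicate 1 or 2 or wild-type replicate 1 or 2. Of 24 Clca and mucus genes 6 rose and 2 fell, the share of falls being below the 9.86% of all genes. Fut2, which fucosylates surface glycans, differed by 1.12 ± 0.24. The goblet cell protein Clca1 read 11.73, 12.15 and 12.86 in knockouts, against 13.88, 14.22 and 13.90 in wild types, a fall of 1.75 ± 0.43. The mucin Muc2 (-0.17 ± 0.21), the trefoil peptide Tff3 (-0.30 ± 0.16) and the goblet factor Spdef (0.47 ± 0.30) were not called, and 2 of 12 goblet markers fell, Clca1 and Fcgbp (-1.11 ± 0.35). Fcgbp lost its call without knockout replicate 1 or 2 or wild-type replicate 2. Goblet markers counted 1 without knockout replicate 1 or 2 or wild-type replicate 2. The rises of the mucus list numbered 3 without knockout replicate 2 or 3 or any of the wild-type arrays, and its falls 1 without knockout replicate 1 or 2 or wild-type replicate 2 and 4 without knockout replicate 3.

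Stem cell and Wnt target genes counted 4 higher and 4 lower of 19. Tnfrsf19 (-1.10 ± 0.18) and the Wnt inhibitor Znrf3 (-1.02 ± 0.18) fell, while Lgr5 (-0.23 ± 0.20) and Axin2 (-0.05 ± 0.14) were not called. Of the probe sets of Tnfrsf19 1 of 3 was called. For Znrf3 it was 1 of 2, and the other had the opposite sign. The rises of this list numbered 1 without knockout replicate 1 or wild-type replicate 2 and 2 without knockout replicate 2 or wild-type replicate 1. Its falls numbered 2 without knockout replicate 1. Enteroendocrine markers fell in 8 of 14 cases and rose in none (median -0.88). Chga, chromogranin A of the hormone granules, read 6.70, 6.82 and 7.03 in knockouts, against 8.57, 8.21 and 8.47 in wild types. Insl5, a peptide hormone of the distal colon, read 6.65, 6.35 and 8.47 in knockouts, against 10.32, 10.14 and 9.80 in wild types. The factor Neurod1 (-0.89 ± 0.23) and the granin Scg3 (-0.87 ± 0.23) fell, while Gcg (-0.28 ± 0.38), Sst (-0.60 ± 0.38) and Cck (0.29 ± 0.20) were not called. The count was 4 without knockout replicate 1 and 5 without knockout replicate 2. Of 11 tuft cell markers 1 rose and 1 fell, shares below the 14.2% higher and 9.86% lower of all genes. The fall was in the kinase Dclk1 (-1.14 ± 0.27), with the defining factor Pou2f3 (-0.0001 ± 0.13) not called. Dclk1 is also made by neurons, and 2 tuft markers fell without 12-week conventional knockout replicate 3. Of 12 epithelial markers 1 rose and 3 fell, and the number of falls was 1 without knockout replicate 1 or 2 or wild-type replicate 1, 2 or 3. Rises among these markers numbered 0 without knockout replicate 1 or 3 or wild-type replicate 1 or 2.

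Markers of the muscle wall and its nerves were lower. Of the smooth muscle markers 12 of 16 fell and none rose (median -0.61), and the range over all 16 was -1.04 to -0.45. Pgm5, a protein of adhesion plaques, read 8.39, 8.43 and 8.77 in knockouts, against 9.71, 9.52 and 9.48 in wild types. Synm, an intermediate filament protein, read 9.63, 9.52 and 9.61 in knockouts, against 10.62, 10.55 and 10.65 in wild types. The shifts were small but the groups were apart in both genes. The number of falling smooth muscle genes was 3 without knockout replicate 1 or wild-type replicate 3, 5 without knockout replicate 2, 4 without wild-type replicate 1 and 6 without wild-type replicate 2. The summed level of the list was 35201 to 39142 on knockout arrays, against 57059 to 61471 on wild-type arrays. Of the enteric neuron markers 10 of 15 fell (median -0.72), and 4 without knockout replicate 1. Snap25, of the synaptic release machinery, read 5.62, 5.82 and 6.34 in knockouts, against 7.25, 7.32 and 7.29 in wild types. Syt1 (-1.08 ± 0.24) and the neuropeptide Vip (-1.12 ± 0.28) fell, while the neuropeptide gene Tac1 (0.76 ± 0.37) lay above wild type without a call. Of 10 markers of enteric glia and pacemaker cells 4 fell, with the calcium-activated chloride channel Ano1 (-1.56 ± 0.35) and the channels Kcna1 (-1.60 ± 0.36) and Scn7a (-1.06 ± 0.25) lower. The pacemaker receptor Kit (-0.85 ± 0.38) and the glial markers S100b (-0.15 ± 0.18) and Sox10 (-0.24 ± 0.13) were not called. Their part in the changes of other lists was not tested.

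The remaining lists moved in few members. Of 17 clock genes 1 rose, the repressor Nfil3 (1.58 ± 0.24), and 3 fell, among them Cry2 (-0.79 ± 0.18). The output factor Dbp (-0.81 ± 0.67) was not called. Falls numbered 1 without knockout replicate 1, 7 without knockout replicate 3 and 5 without 12-week wild-type replicate 3, and rises 2 without knockout replicate 1 or 12-week SPF knockout replicate 2. Of 20 immediate early genes 5 rose and 1 fell. The survival gene Ier3 (1.21 ± 0.31) rose, while Fos (0.17 ± 0.20), Jun (0.19 ± 0.18) and Egr1 (0.21 ± 0.36) were not called. The rises numbered 2 without knockout replicate 1 or 2 and 3 without wild-type replicate 1 or 3, and the falls 0 without any 1 of 18 of the 27 arrays, the wild-type arrays and knockout replicates 1 and 2 among them. Of 19 prostaglandin genes 4 rose and 2 fell, the share of falls being close to the 9.86% of all genes. The lipoxygenase Alox15 (0.96 ± 0.20) rose and the prostaglandin receptor Ptger3 (-1.40 ± 0.32) fell, while the inducible cyclooxygenase Ptgs2 (0.74 ± 0.42) was not called. Rises numbered 2 without knockout replicate 1 or wild-type replicate 2 and 1 without knockout replicate 2 or wild-type replicate 3, and falls 1 without knockout replicate 1 or 2, wild-type replicate 2 or 7-week SPF knockout replicate 3. Of 20 iron and oxidative stress genes 5 rose and 2 fell, the share of falls being close to the 9.86% of all genes. The transferrin receptor Tfrc (1.57 ± 0.28), the peroxiredoxin repair enzyme Srxn1 (0.76 ± 0.14) and the thioredoxin reductase Txnrd1 (0.63 ± 0.14) were higher. Hamp (-0.14 ± 0.12) and Mt1 (-0.23 ± 0.26) were not called. Falls in this list numbered 0 without knockout replicate 1 or 2 or wild-type replicate 1, and 1 without wild-type replicate 2 or 3. No member of the adipocyte, erythroid or small intestine lists was called (limma; 2 falls and 1 rise in small intestine markers, 1 fall in adipocytes and 0 in erythroid cells at an unadjusted p under 0.05). Of 12 skeletal muscle markers 1 fell, Myl1 (-0.52 ± 0.18), at a limma adjusted p of 0.0447, a share below the 9.86% of all genes. That count was 0 without any 1 of the 3 knockout arrays, wild-type replicate 1 or 2 or 4 arrays of other groups, and 2 or 3 without 6 arrays.

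**Figure D4:**
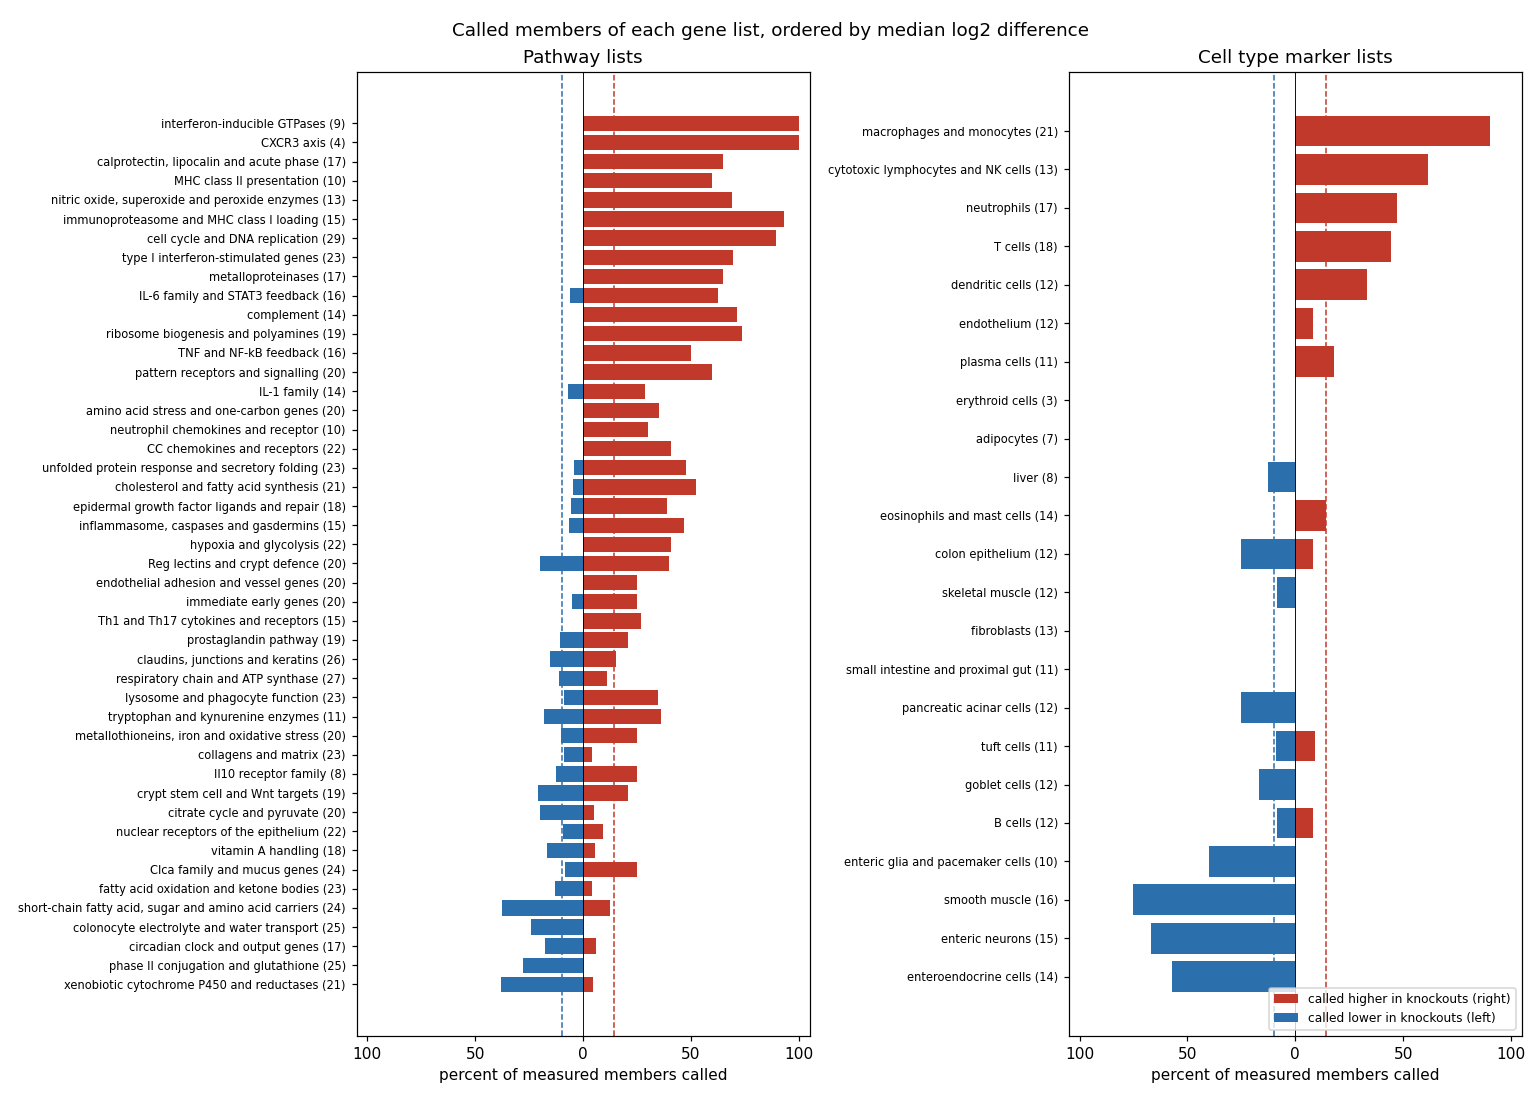
For each gene list, named with its number of measured members, the bar to the right is the percent of members called higher in knockouts and the bar to the left the percent called lower, in order of the median difference. The dashed lines mark the shares over all genes, 14.2% higher and 9.86% lower, and the red bars of the CXCR3, GTPase, immunoproteasome, macrophage and cell cycle lists and the blue bars of smooth muscle, neuron and enteroendocrine lists extend furthest beyond them.

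The difference at 9 weeks was then set against those at 7 and 12 weeks, which come from other arrays. The difference at 9 weeks departed from that at 7 weeks in 366 genes (2.01%), 202 above it (1.11%) and 164 below (0.901%), and from that at 12 weeks in 332 genes (1.82%), 262 above it (1.44%) and 70 below (0.385%). Both tests use the same 9-week arrays. S100a8 differed between knockouts and wild types by 0.15 ± 1.12 at 7 weeks, 6.98 ± 1.12 at 9 weeks and -0.10 ± 1.12 at 12 weeks. Its knockouts averaged 3.74, 10.26 and 3.49 at these ages, against 3.60, 3.28 and 3.58 in wild types, so the gene was high in the 9-week knockouts only among these 6 groups. Lrg1 differed by 0.63 ± 0.66 at 7 weeks, 5.40 ± 0.66 at 9 weeks and 1.16 ± 0.66 at 12 weeks. For Ido1 the differences were 1.87 ± 0.56 at 7 weeks, 5.38 ± 0.56 at 9 weeks and 1.83 ± 0.56 at 12 weeks. Ido1 was thus above wild type on average at each age, and its 9-week difference exceeded that at 12 weeks by 3.55 ± 0.79 (adjusted p = 0.0336). Among the falls, Cldn8 differed by 1.38 ± 0.36 at 7 weeks, -1.81 ± 0.36 at 9 weeks and 0.35 ± 0.36 at 12 weeks. It lay above wild type at 7 weeks and below at 9 weeks, and the change was -3.19 ± 0.51 (adjusted p = 0.00456). Tgm3 differed by -0.30 ± 0.95 at 7 weeks, -4.95 ± 0.95 at 9 weeks and 0.78 ± 0.95 at 12 weeks. Trpm6, a magnesium channel of absorptive cells, differed by 0.58 ± 0.52 at 7 weeks, -2.74 ± 0.52 at 9 weeks and -0.09 ± 0.52 at 12 weeks.

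These tests between ages were less stable than the comparison at 9 weeks. The count for 7 weeks ranged from 48 without 7-week conventional knockout replicate 2 to 1353 without 12-week SPF knockout replicate 2, and 16 of 27 arrays moved it by over 1.5 times when left out. The count for 12 weeks ranged from 0 without knockout replicate 1 to 1618 without 12-week SPF knockout replicate 2, and 22 of 27 arrays moved it so. Of the 10 genes named for 7 weeks, Cldn8 alone kept its call without each of the 27 arrays (highest adjusted p 0.0225). For the other 9 the highest adjusted p lay between 0.0553 for Lrg1 and 0.128 for Sycn, and for the 10 genes named for 12 weeks between 0.106 for B3gnt7 and 0.163 for Rbp2. The medians of the lists can be set side by side. For the GTPases the median difference was 1.25 at 7 weeks, 3.15 at 9 weeks and 1.03 at 12 weeks. For macrophage markers it was 0.42, 1.61 and 0.34 at these ages, for cell cycle genes 0.56, 1.07 and 0.17, and for smooth muscle -0.15, -0.61 and -0.18. With the replicate number as a block the counts were 200 for 7 weeks and 0 for 12 weeks, so the 10 genes named for 12 weeks, Ido1 among them, all lost their calls. Of the 10 genes named for 7 weeks, S100a8, S100a9, Cxcl5, Sprr2h, Sycn, Cpm and Tppp3 also lost theirs with the block. Lrg1, Trpm6 and Cldn8 kept theirs.

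**Figure D5:**
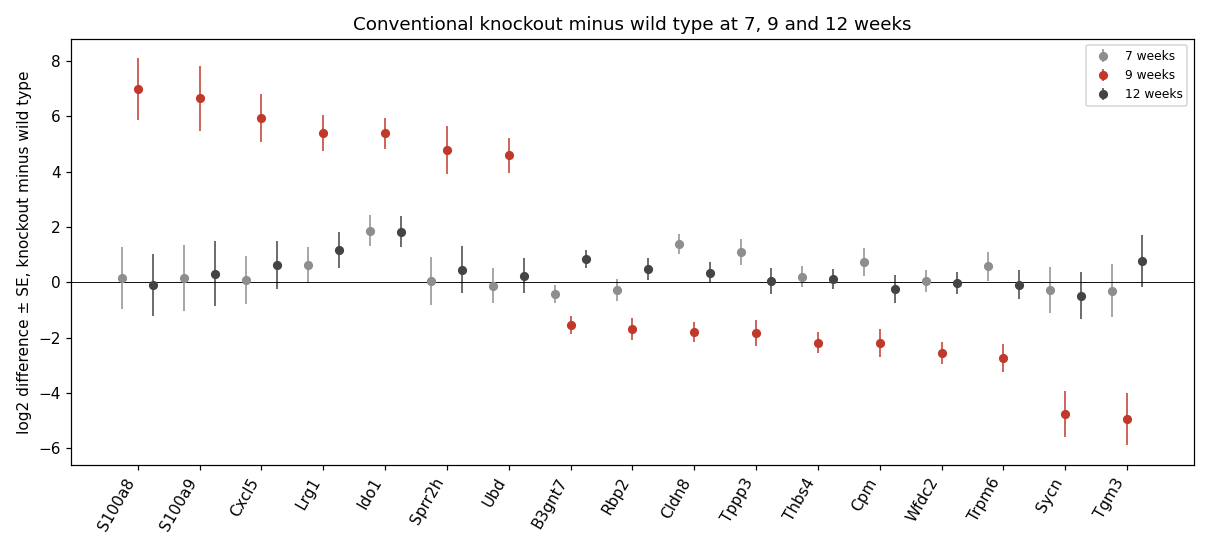
Log2 differences, conventional knockout minus wild type, are plotted ± SE at 7, 9 and 12 weeks for 17 genes whose 9-week difference departed from that at another age, with n = 3 arrays per group. The red 9-week points lie far above 0 for S100a8 (6.98) to Ubd (4.59) and below 0 for the genes that fell, down to Tgm3 (-4.95), while most points of the other ages lie nearer to 0.

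Conventional knockouts were also compared with SPF knockouts of 9 weeks, which share the genotype and differ in housing. With limma 0 genes were called (smallest adjusted p 0.169). Without adjustment, a p under 0.05 was found for 968 genes that were higher and 500 that were lower in conventional knockouts. With array weights 2178 were called higher and 1503 lower. Leaving out 1 array gave at most 185 calls, without 12-week SPF knockout replicate 2. S100a8 averaged 10.26 ± 1.01 in conventional knockouts and 6.04 ± 3.15 in SPF knockouts (SD, n = 3 each). The SPF arrays thus scattered widely, and the difference of 4.21 ± 1.12 had an adjusted p of 0.194. Psmb9 averaged 10.20 ± 0.34 in conventional knockouts and 9.38 ± 0.60 in SPF knockouts, with a difference of 0.82 ± 0.25 (adjusted p = 0.286). Mptx1 averaged 6.07 ± 2.89 in conventional knockouts and 10.89 ± 1.84 in SPF knockouts, a difference of -4.81 ± 1.38 (adjusted p = 0.232). Against the wild types of 9 weeks, which all these differences share, the median of the GTPases was 3.15 in conventional and 2.06 in SPF knockouts, that of macrophage markers 1.61 in conventional and 0.62 in SPF knockouts, that of cell cycle genes 1.07 in conventional and 0.98 in SPF knockouts, and that of smooth muscle -0.61 in conventional and -0.64 in SPF knockouts. The cell cycle and smooth muscle medians were thus of like size in both knockout groups. The wild types were kept conventionally, so SPF knockouts differ from them in both genotype and housing, and these 2 cannot be told apart there.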

How the data were processed

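Biotin-labelled RNA of 27 samples was hybridized to 1 Affymetrix array each. The authors deposited log2 expression values per probe set, normalized over arrays with affyPLM, per the series' design text. On its version, background correction and summarization nothing is given in the sources used here. Values lay between 2.10 and 14.25, and array medians between 4.91 and 4.98. Of 45101 probe sets, 64 controls were left out, and 34945 with 1 gene symbol gave 18193 genes, 9010 of them with more than 1 probe set, of which the one with the highest mean was used. Probe sets with several symbols (932) or none (9160) were tested apart.

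limma (3.58.1, R 4.3.3) fitted 9 group means with 18 residual degrees of freedom, and contrasts were tested two-sided with eBayes and Benjamini-Hochberg adjustment over all genes of a contrast, at 0.05. A fit over all genes was used because an exact permutation of 3 against 3 arrays cannot go below 0.1. The 69 lists (46 pathways, 23 cell types) held 1143 measured entries of 1259 and were described by counts and medians, with no set test. The comparison, lists and alternatives were chosen with earlier results of these data known. Genes were named by a rule: the 12 largest rises and falls whose groups did not overlap, up to 5 called members per list by adjusted p, Il10, 5 per direction for each other age and the 5 largest SDs in knockouts; members that did not pass are given for contrast. Members called but outside this rule are said to be chosen after their values were seen.

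Deviations of same-numbered arrays from their group means correlated at -0.002, -0.039 and 0.058 for knockouts and wild types of 9 weeks. Over the 8 pairs of groups that the contrasts compare these correlations ran from -0.438 to 0.398, and in 0 of the pairs did all 3 exceed 0.1, so the numbers were not taken to pair samples. In simulated data, 87 of 100 genes changed by 1 log2 unit and 100 of 100 changed by -2 were called in the 9-week comparison, with 12 of 17993 unchanged genes. The simulated noise was normal, independent between genes and of the same SD in all groups, and few genes were changed. These rates check the fit and need not hold on the real arrays, where knockouts were more variable. Alternatives were a replicate block, quantile normalization, median centring, dropping the dimmest 40% of genes, averaging the probe sets of a gene, all probe sets, an intensity trend, array weights, the compared arrays alone, 2 fold minimums and leaving out each array. Promoter stretches are from RefSeq (GRCm38.p6). Tables and figures came from matplotlib 3.10.9, pandas 2.3.3 and NumPy 2.4.6 under Python 3.11.15.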

Additional observations from a re-analysis of the deposited data

Results flagged for a closer look

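The difference between knockouts and wild types departed from that at 7 weeks in 366 genes and from that at 12 weeks in 332, each by a test of the difference between ages. Against 7 weeks, the largest excesses at 9 weeks were in S100a8 (6.83 log2 units), S100a9 (6.49), Cxcl5 (5.86), Lrg1 (4.76) and Sprr2h (4.74). The largest deficits were in Sycn (-4.47), Trpm6 (-3.32), Cldn8 (-3.19), the carboxypeptidase Cpm (-2.94) and the tubulin-binding Tppp3 (-2.93). Against 12 weeks, the excesses were in S100a8 (7.08), Cxcl5 (5.32), Ubd (4.35), Lrg1 (4.23) and Ido1 (3.55). The deficits were in Tgm3 (-5.73), Wfdc2 (-2.51), the glycan enzyme B3gnt7 (-2.37), the matrix protein Thbs4 (-2.30) and Rbp2 (-2.16).

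Probe sets outside the gene table also carried signal between the groups. Of the 932 with several gene symbols, 195 were called (128 higher and 67 lower in knockouts, 20.9%), and of the 9160 with no symbol, 816 (284 higher and 532 lower, 8.91%). Over all 45037 probe sets that are not controls, 17.1% were called, so the share of unnamed ones was below and the share of shared ones above that level. Which transcripts they read is not given here.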

How the results depend on the processing

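The counts of genes that differed at 9 weeks were 4375 in all, 2582 higher and 1793 lower. They were 7718, 4270 and 3448 over all probe sets, 7659, 4207 and 3452 with array weights, 868, 547 and 321 with a minimum of 1 log2 unit, and 275, 219 and 56 in a test against 0.5 log2 units. Leaving out each array gave 2119 to 5058 in all, 1355 to 2915 higher and 764 to 2173 lower. For the difference at 9 minus that at 7 weeks (366, 202 above and 164 below) the counts were 200, 101 and 99 with the replicate block, 3101, 1560 and 1541 with array weights, 1670, 786 and 884 with only the arrays compared, 203, 126 and 77 with the minimum of 1, and 6, 3 and 3 against 0.5. Leaving out each array gave 48 to 1353, 23 to 661 and 25 to 692. For 9 minus 12 weeks (332, 262 and 70) they were 0, 0 and 0 with the replicate block and against 0.5, 559, 432 and 127 without the dimmest genes, 190 and 139 above with the mean of probe sets, 190, 151 and 39 over all probe sets, 138 above after quantile normalization, 2841, 1861 and 980 with array weights, 1307, 852 and 455 with only the arrays compared, and 164, 133 and 31 with the minimum of 1. Leaving out each array gave 0 to 1618, 0 to 1085 and 0 to 533. Conventional against SPF knockouts gave 0 calls, 2 over all probe sets (1 higher and 1 lower), 3681 with array weights (2178 and 1503), and 0 to 185, 0 to 154 and 0 to 31 with an array left out. The causes of these moves were not tested, apart from the fold minimums, which lower the counts by construction.

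The replicate block gave 4066 calls at 9 weeks, 2411 higher and 1655 lower, and 6 named genes lost their call. After quantile normalization 2297 rose and 2203 fell, and after median centring 2731 rose and 1671 fell. Of 281 named genes that were called, 203 kept their call under every alternative other than the 2 fold minimums, 76 lost it without at least 1 array, most often knockout replicate 1 (67), and 0 changed sign. Of the named genes, 118 had more than 1 probe set, and 0 had a probe set called in the opposite direction. Other probe sets of a gene did not always pass: of 9 for Dclk1, 3 were called. A probe set without a call had the opposite sign in Stat3, Tap1, Dnajc3, Syt1 and Znrf3, among others. The number of arrays limits what can be called.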

Other observations

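Genes outside the lists, chosen after their values were seen, add other functions. Mfsd2a, a carrier of lysophospholipids, read 9.30, 8.71 and 7.45 in knockouts, against 4.38, 4.88 and 4.54 in wild types. Its difference was 3.89 ± 0.55, adjusted p = 7.52e-05, with all knockout arrays apart from all wild types. Trim15, of the tripartite motif family, differed by 3.70 ± 0.41, adjusted p = 4.80e-06. Klb, the co-receptor of fibroblast growth factors that act on metabolism, read 4.02, 4.002 and 4.22 in knockouts, against 6.80, 7.06 and 6.14 in wild types and differed by -2.59 ± 0.50, adjusted p = 0.00113. Cyp2d12 and Eno3, among the 12 largest falls, differed by -3.42 ± 0.69 and -3.24 ± 0.69.

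The 5 genes with the largest SD among knockouts included Mptx1, Fxyd4, Reg4 and Atp12a. Reg4, a lectin of deep crypt secretory cells, read 6.43, 10.32 and 9.38 in knockouts, against 11.22, 12.12 and 10.52 in wild types, and its difference was -2.58 ± 0.90, adjusted p = 0.0405. Reg4 lost its call without knockout replicate 1 or wild-type replicate 1 or 2 or with only the compared arrays. On chromosome 1, which carries Il10, 278 of 1057 genes tested were called (26.3%), against 24.0% of all genes. The share was higher on chromosomes 19 (28.2%) and 16 (26.6%). A share over a whole chromosome cannot show a change confined to the few genes beside Il10, and these were not examined apart.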
